A study of Ciona robusta with 133 samples.

Results

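The genes described here are 80 gene models of the ascidian Ciona robusta, of 15287 in the deposited table. At both the 112-cell and the neural plate stage, their level was higher in the epidermal cells of the a line than in the other 3 types sampled. Cell types that were not sampled could not be compared. Each gene's level was the mean over libraries of its CPM, its count scaled so that each library's counts sum to 1000000. One value was log2 of the level in a8.22 plus 1 over the highest level in A8.5, A8.7 and a8.19 plus 1. The other set a9.43+a9.44 against the highest of the other 3 neural plate types in the same way. Genes were ranked by the smaller of these values, 115 genes were above the limit of 1, and the first 80 were kept as members. All 112-cell and neural plate levels therefore chose the members, and they are given below as a description without a test.

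Single cells were dissected by hand from embryos, and 133 libraries of 19 cell types were sequenced at 5 stages. The animal a line was sampled as a5.3 at 16 cells. From 32 cells on it was sampled on the neural side as a6.5, a7.10, a8.19 and a9.37+a9.38, and on the epidermal side as a6.6, then a7.11, then a8.22, and last a9.43+a9.44. The vegetal A line was sampled as A5.1, then A6.2, A7.4, A8.7 and A9.13+A9.14 on the neural side, and as A6.1, A7.2, A7.3, A8.5 and A9.9+A9.10 in the other cells. The labels name no mutant, transgene or treatment in any group, and give the stage, the cell, the embryo and the side or column. In textbook fate maps the epidermal-side cells from a7.11 on give epidermis. The neural plate labels name 2 cells per library, and which of them a library held is not stated.

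The ascidian larva is covered by an epidermis that is a single layer of cells and that secretes the tunic. It descends from the animal side of the embryo. Animal cells of the ascidian embryo take an epidermal course unless an inducing signal from vegetal neighbours, chiefly an FGF, turns them to a neural one, and the a line is split between these courses by the position of its cells. Early cells also still hold RNA that the egg supplied, which read counts do not separate from RNA made by the cell. None of the identifiers could be matched to a gene name, so the products of the members are not known here, and the epidermal markers that would check the label were not available. The members are named below by their identifiers, without a role.

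Cell types were represented by 6 to 9 libraries from 2 to 8 embryos. Libraries held 1452103 to 16599891 counts, with a median of 7546701. Libraries from the same embryo and cell type were added up to 87 embryo samples, and n is always a number of embryos. The left-hand A6.1 library of embryo 5 stood apart, with 7137 genes detected against at least 9667 elsewhere. It was left out of the tests at 32 cells, and the values with it are given where they change a call or a count of members. Separate embryo numbers are the only sign that samples are independent, so p-values measure the spread between these embryos.

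The summed level of the 80 members was higher at each later stage of the epidermal branch and stayed low in the A line, as a description of the whole course. At 16 cells A5.1 had 395 ± 34.7 CPM (SD, n = 5) and a5.3 had 454 ± 41.8 CPM (n = 5). In the epidermal branch it was then 1214 ± 256 CPM in a6.6 (n = 5), 1626 ± 291 CPM in a7.11 (n = 6), 4528 ± 1585 CPM in a8.22 (n = 4) and 20369 ± 1711 CPM in a9.43+a9.44 (n = 3). These last levels were 0.453% and 2.04% of all counts. On the neural side of the a line the sum was 877 ± 212 CPM in a6.5 (n = 5), 810 ± 196 CPM in a7.10 (n = 8), 849 ± 122 CPM in a8.19 (n = 4) and 1997 ± 767 CPM in a9.37+a9.38 (n = 3). The 4 means of the a-line neural side from 32 cells on were all above every A-line mean, the highest of which was 650 ± 103 CPM in A7.4 (n = 4). The lowest A-line mean was 276 ± 37.3 CPM in A8.5 (n = 5). In single embryos a6.5 reached down to 530 CPM and a7.10 to 484 CPM, inside the range of the A-line embryos.

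**Figure D1:**
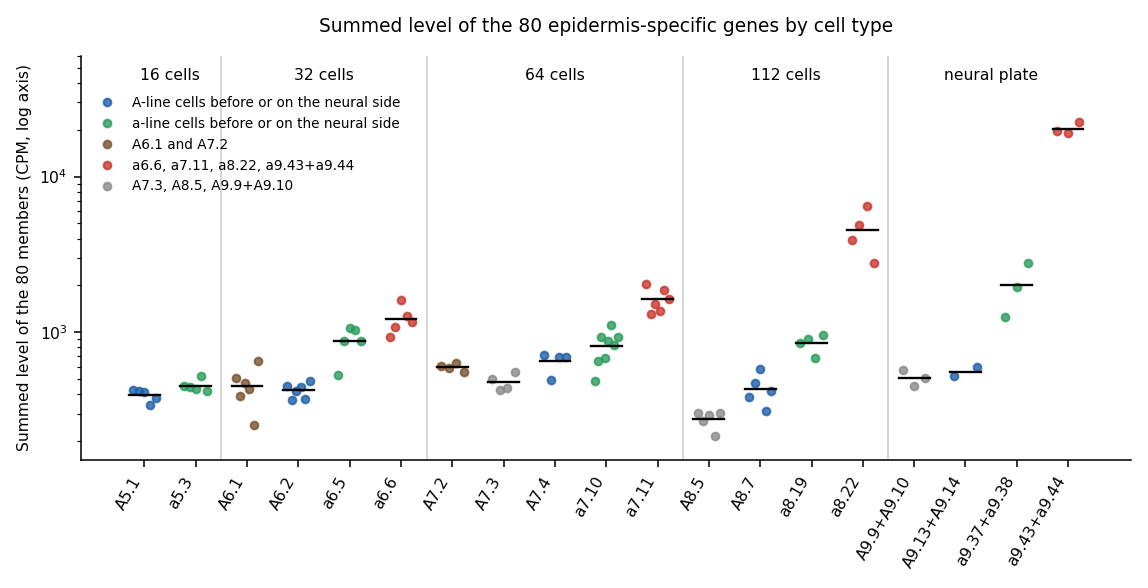
Summed level of the 80 members in CPM (log axis) in each of the 87 embryo samples, by cell type and stage. Points are embryos and black bars are means. The a8.22 embryos lie between 2774 and 6509 CPM and the a9.43+a9.44 embryos between 19040 and 22299 CPM. Of the other samples, the highest is an a9.37+a9.38 embryo at 2790 CPM.

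At 32 and 64 cells, which the choice of members did not use, the epidermal cell held the higher sum in every embryo where it could be compared with its neural-side partner. The 5 embryos with a6.6 and a6.5 had sums of 929 and 530, 1087 and 881, 1613 and 1068, 1273 and 1026, and 1168 and 880 CPM, with a6.6 first. The 6 embryos with a7.11 and a7.10 had sums of 2054 and 927, 1311 and 680, 1522 and 874, 1361 and 1109, 1869 and 831, and 1640 and 927 CPM, with a7.11 first. The a7.11 embryos did not overlap with the a7.10 embryos, whose highest was 1109 CPM. The a6.6 and a6.5 embryos overlapped. Within these embryos 43 to 52 of the 80 members were higher in a6.6 and 10 to 22 in a6.5. For a7.11 it was 36 to 52 members, against 16 to 26 higher in a7.10. Over all genes that differed, 48.6% to 51.3% were higher in a6.6 and 48.0% to 51.2% in a7.11.

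The members differed widely in when they were first detected at 5 CPM or more along the branch from a5.3 to a9.43+a9.44. At the 16-cell stage 16 members already reached this level in a5.3, and all 16 also reached it in A5.1. Another 18 reached it first in a6.6, 12 in a7.11, 22 in a8.22 and 10 in a9.43+a9.44. A pair of members stayed under it in every cell of the branch. At 50 CPM or more stood 3 members in a5.3, 7 in a6.6, 8 in a7.11, 25 in a8.22 and 46 in a9.43+a9.44. The level of the median member was 0.647 CPM in a5.3, 2.62 CPM in a6.6, 4.52 CPM in a7.11, 25.2 CPM in a8.22 and 70.1 CPM in a9.43+a9.44.

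The 16 members present from 16 cells were not confined to the a line at any stage. Their median level was 17.1 CPM in a5.3 and 13.4 CPM in A5.1. It was 38.6 CPM in a6.6 against 13.5 CPM in A6.2, 49.03 CPM in a7.11 against 25.4 CPM in A7.4, and 68.1 CPM in a8.22 against 13.8 CPM in A8.7. In a9.43+a9.44 it was 271 CPM, against 28.1 CPM in a9.37+a9.38 and 18.8 CPM in A9.13+A9.14. The 12 members first at that level in a7.11 had a median of 10.7 CPM there, while it was 2.88 CPM in a7.10 but 0.319 CPM in A7.4. The 22 members first at that level in a8.22 had medians of 1.89 CPM in a7.11, 11.7 CPM in a8.22 and 71.2 CPM in a9.43+a9.44. Since the last columns chose the members, only the levels before 112 cells are free of the choice, and the classes themselves were cut from the branch.

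**Figure D2:**
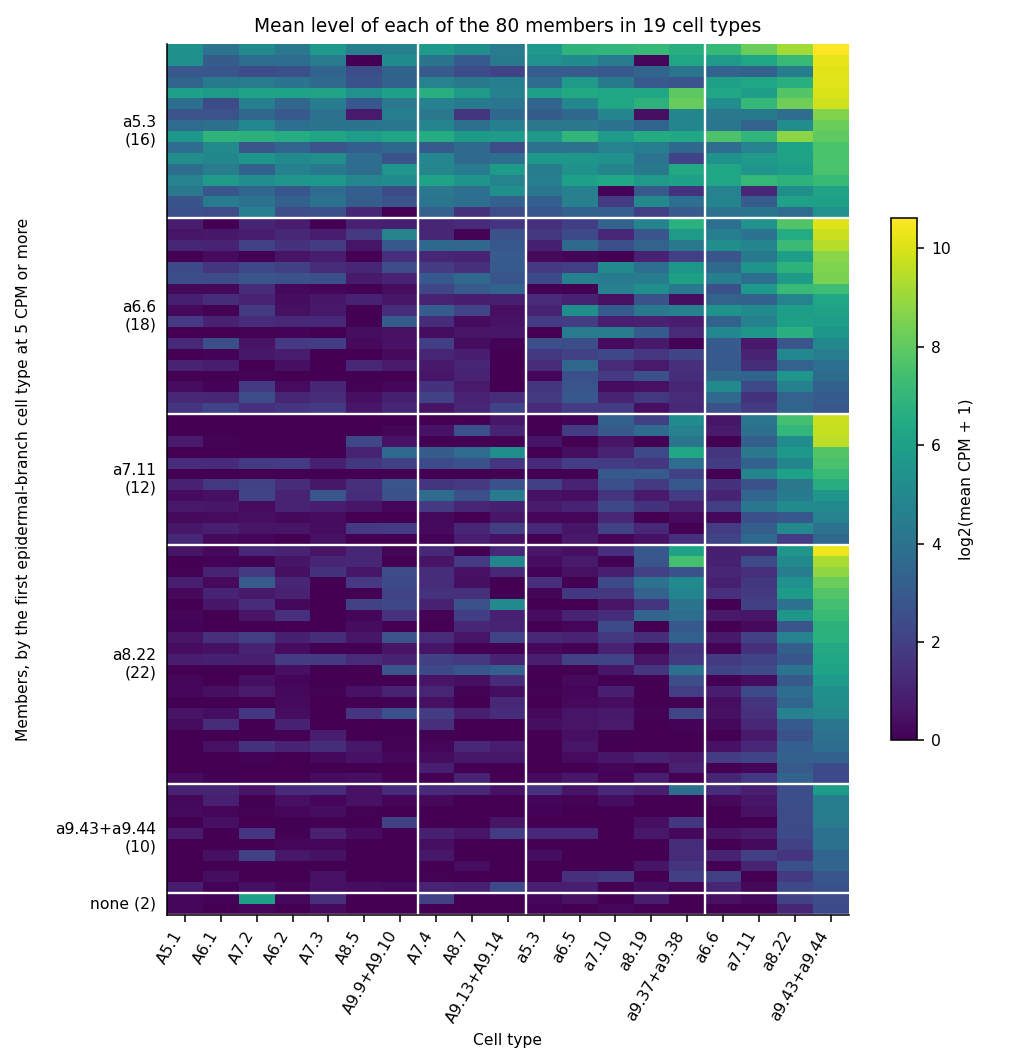
Mean level of each member as log2(mean CPM + 1) in the 19 cell types. Rows are the 80 members, grouped by the first epidermal-branch cell type at 5 CPM or more with the number of members, and columns run from the A line to the a-line neural side and the epidermal branch. The upper block of 16 members is coloured in nearly every column. The blocks below are mostly darker outside the epidermal branch, but not dark throughout. Of their members, KH.C9.717 stood at 180 CPM in a9.37+a9.38, KH.C2.364 at 38.2 CPM in a8.19 and KH.C1.852 at 67.3 CPM in A7.2. Over all blocks, 38 members were at 5 CPM or more in a9.37+a9.38.

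A pair of members fell outside this course and are named after their values were seen. KH.C1.852 stood at 67.3 CPM on average in the A-line cell A7.2, with 95.4, 131 and 42.8 CPM in embryos 2, 3 and 5 and no count in embryo 4. In a8.22 and a9.43+a9.44 it stood at 3.28 and 4.67 CPM. The rule compared a8.22 and a9.43+a9.44 only with cells of their own stages, so a high level at 64 cells did not enter it. KH.C7.306 was at most 1.203 CPM on average in every cell type other than a9.43+a9.44, where it stood at 4.15 CPM.

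The 6 members ranked first had smaller values of 4.86 for KH.C12.323, 4.75 for KH.C4.52, 4.12 for KH.L8.1, 4.11 for KH.C9.701, 3.87 for KH.C12.628 and 3.82 for KH.S1482.4, on the log2 scale of the rule. At the end of the list KH.C3.303 had 1.27 and KH.L102.1 had 1.26, and just outside it KH.C10.366 had 1.25 and KH.C11.394 had 1.24. KH.L102.1 stood at 116 CPM in a8.22 and 52.3 CPM in a8.19, and at 139 and 65.5 CPM in a9.43+a9.44 and a9.37+a9.38. KH.C10.366 stood at 16.96 CPM in a8.22 against at most 4.32 CPM in the other 112-cell types, and at 10.1 CPM in a9.43+a9.44 against 5.73 CPM in A9.13+A9.14. These levels are means over embryos, while the ranking value used means over libraries, so the levels do not return that value. The members at the end of the list were thus separated from genes outside it by a small step in the ranking value.

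KH.C12.323 was nearly absent at 16 cells, with at most 0.445 CPM in any embryo. In a6.6 it stood at 1.73, 1.13, 25.8, 0 and 0.750 CPM, so 1 embryo carried most of it. In a7.11 it was at 19.7, 22.8, 11.96, 15.5, 17.9 and 23.2 CPM, while all 8 a7.10 embryos had no count, which allows up to 0.0470 CPM over the group. In a8.22 the embryos stood at 11.5, 166, 52.8 and 9.28 CPM, and in a9.43+a9.44 at 655, 293 and 327 CPM. The a7.11 embryos lay close together, while 2 a8.22 embryos lay at or under the a7.11 level and 2 well above it.

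KH.C4.52 and KH.C12.628 had an abrupt start. KH.C4.52 had no count in any A-line embryo up to 112 cells. It had counts in 1 of 5 a6.6 embryos (2.59 CPM) and 1 of 5 a6.5 embryos (0.308 CPM). In a7.11 it stood at 0, 5.57, 0, 37.1, 20.9 and 38.1 CPM, and in a7.10 the highest embryos were at 38.6 and 29.8 CPM, so these types overlapped. In a8.22 it stood at 164, 88.1, 308 and 126 CPM against at most 8.16 CPM in a8.19. KH.C12.628 had no count at 16 and 32 cells in any embryo. It stood at 37.4, 33.7, 61.2, 23.8, 9.47 and 0.116 CPM in a7.11, and at 28.7 and 23.8 CPM in the 2 of 8 a7.10 embryos that had counts. In a8.22 the gene was split, at 170 and 94.2 CPM in embryos 2 and 3 and without a count in embryos 1 and 4. In a9.43+a9.44 all embryos held it, at 171, 122 and 129 CPM.

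KH.L8.1 and KH.C9.701 were seen before the 64-cell stage. KH.L8.1 stood at 4.60, 21.3, 58.4, 25.3 and 5.92 CPM in a6.6 and at 1.27, 5.90, 7.33, 6.24 and 0.439 CPM in a6.5. In a8.22 it was at 60.5, 175 and 131 CPM in embryos 1 to 3 and without a count in embryo 4, and in a9.43+a9.44 at 935, 713 and 921 CPM. KH.C9.701 was present in both 16-cell types, at 9.42 to 70.9 CPM in A5.1 and 19.6 to 86.8 CPM in a5.3. It ranged from 45.8 to 118 CPM in a7.11 and from 0 to 56.4 CPM in a7.10, so the types overlapped in 1 embryo of each. At 112 cells it stood at 0.156, 0.257, 0 and 0 CPM in a8.19 and at 135, 198, 218 and 29.7 CPM in a8.22. In the neural plate it was again found in a9.37+a9.38, at 60.9, 66.1 and 104 CPM, below the 1078 to 1377 CPM of a9.43+a9.44. KH.S1482.4 remained low, at 39.5, 12.4, 7.64, 12.6, 26.4 and 2.44 CPM in a7.11 and 24.6, 47.7 and 26.95 CPM in a9.43+a9.44.

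**Figure D3:**
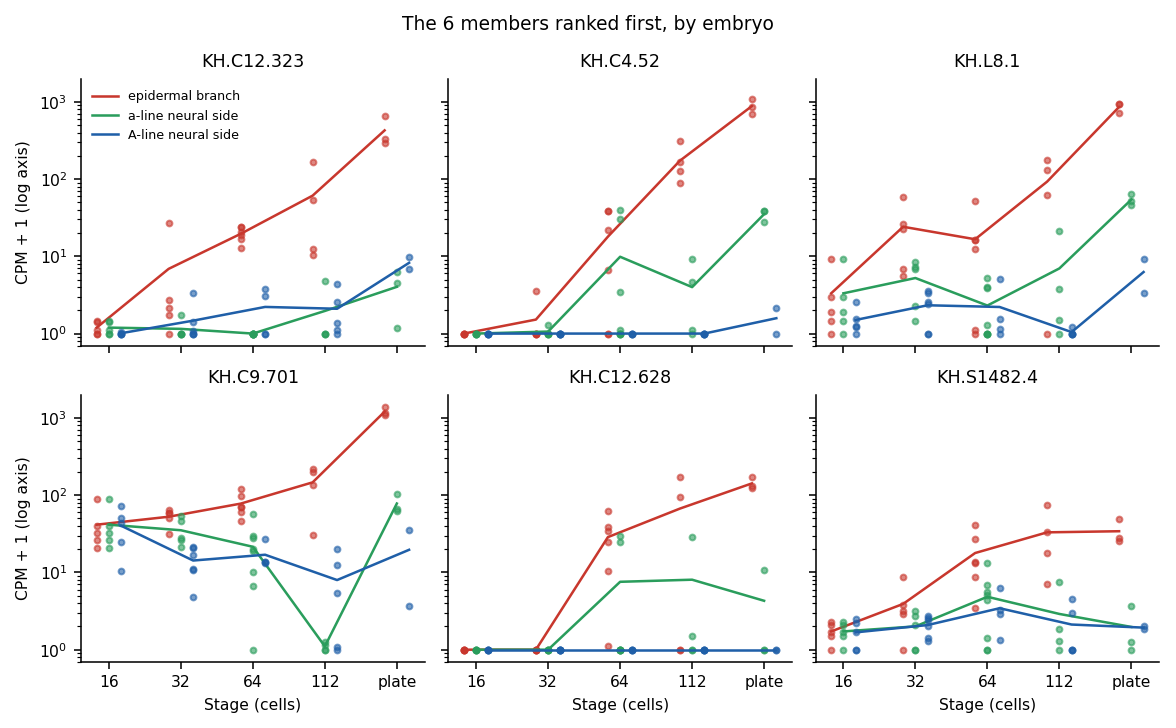
Level of the 6 members ranked first, as CPM + 1 on a log axis, by stage. Points are embryos and lines join means. Red is a5.3 followed by the epidermal branch, green is a5.3 followed by the a-line neural side, and blue is A5.1, A6.2, A7.4, A8.7 and A9.13+A9.14. KH.C9.701 starts in all lines at 16 cells, and KH.C12.628 starts at 64 cells in a7.11 and in 2 embryos of a7.10.

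The comparison at 16 cells asked whether members already differed between the animal cell a5.3 and the vegetal cell A5.1. By edgeR, 0 of the 80 members were called higher and 0 lower in a5.3 at an adjusted p below 0.05, against 0.121% of all 9935 genes tested called higher and 0.0302% called lower. Of the members, 26 had enough counts to be tested, and 3 of these had an unadjusted p below 0.05. DESeq2 and limma voom also called 0 members. A fit blocked by embryo called 128 genes and again 0 members. Over all 80 members, the median difference of log2(mean CPM + 1) was 0.036, and 0 over all genes. KH.C9.701 differed by a log2 fold change of 0.017 ± 0.50 (SE; adjusted p = 0.992).

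At 32 cells the epidermal cell a6.6 and its sister a6.5 were compared first. No member was called, 0 higher and 0 lower by edgeR, against 0% and 0.00891% of 11229 genes. Of the 55 members tested, 9 had an unadjusted p below 0.05. limma voom called 1 member higher in a6.6 and DESeq2 called 0, beside 0.0356% and 0.0267% of genes. Blocked by embryo, 12 genes and 0 members were called. The members' median difference was 0.26 on the log2(mean CPM + 1) scale, and 52 of the 80 had a higher mean in a6.6 and 21 in a6.5. KH.C12.323 had a log2 fold change of 5.07 ± 1.89 and KH.L8.1 of 2.44 ± 1.07, both with an adjusted p of 1.

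Against the A-line neural cell A6.2, 17 of the 80 members were called higher in a6.6 and 0 lower, where 3.19% of all genes were called higher and 2.99% lower. The members' median difference was 0.73, with 36 of 80 above 1, against 5.15% of all genes. KH.S1208.1 stood at 6.76, 4.52, 29.1, 11.2 and 2.96 CPM in a6.6 and had no count in 6 A6.2 embryos. It was at least 149-fold higher in a6.6 (adjusted p = 0.00525), and stood at 5.02 ± 5.44 CPM in a6.5 (n = 5). KH.C9.411 stood at 39.3, 24.1, 40.6, 21.1 and 23.2 CPM in a6.6, against 0.478 CPM in 1 of 6 A6.2 embryos and no count in the others (log2 fold change 8.74 ± 1.10, adjusted p = 0.000109). It was also present in a6.5, at 1.09 to 45.1 CPM. None of the members called here was called between a6.6 and a6.5. Of the leading members, KH.C9.701 was higher in a6.6 at 51.5 ± 12.7 against 13.2 ± 6.43 CPM (adjusted p = 0.00291), and KH.L8.1 at 23.1 ± 21.7 against 1.32 ± 1.11 CPM (adjusted p = 0.0245, not past the threshold without a6.6 embryo 3). With the A6.1 library that stood apart, 9 members were called higher, beside 0.623% of genes, and the adjusted p of KH.L8.1 was 0.0974. The labels do not say that A-line and a-line cells came from the same embryos at 32 and 64 cells, so lineage and collection cannot be told apart in comparisons between the lines.

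At 64 cells a7.11 was compared with a7.10, the cell of the neural side. One member of 80, KH.C12.323, was called higher in a7.11 and 0 lower, where 0.0945% of 11645 genes were called higher and 0.215% lower. At 18.5 ± 4.34 CPM (n = 6) against 0 counts in 8 a7.10 embryos it was at least 394-fold higher (adjusted p = 0.00720). Over the 6 embryos that held both cells, a fit blocked by embryo gave an adjusted p of 0.149 and called 0 members. Of the 69 members tested, 22 had an unadjusted p below 0.05. DESeq2 called 7 members higher and limma voom 4, beside 0.515% and 0.12% of genes. Without a7.10 embryo 6 it was 3, beside 0.121%. The median difference over the 80 members was 0.78, and 64 of them had a higher mean in a7.11 against 15 in a7.10.

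Against the A-line neural cell A7.4, 8 of the 80 members were called higher in a7.11 and 0 lower, with 3.17% and 4.9% of all genes called. KH.C12.628 stood at 27.6 ± 21.7 CPM in a7.11 (n = 6) without a count in A7.4 (n = 4), at least 457-fold higher (adjusted p = 0.0387). That call was lost in 9 of 10 fits without 1 embryo and held without a7.11 embryo 8, and its adjusted p reached 0.0915. KH.C9.411 stood at 14.8, 55.8, 16.7, 17.3, 15.5 and 171 CPM in a7.11 and at 0, 0, 0.128 and 0.936 CPM in A7.4 (log2 fold change 7.27 ± 1.90, adjusted p = 0.0191). It passed the threshold in 7 of 10 fits without 1 embryo and not without A7.4 embryo 2, 3 or 4. The count of members fell to 3 without A7.4 embryo 2 or 3 and to 4 without A7.4 embryo 4. Without A7.4 embryo 5 or a7.11 embryo 7 it was 5. In these fits 1.53% to 2.47% of genes were called higher. The count was 14 by limma voom and 13 in a fit of the 2 groups alone, beside 4.52% and 3.59% of genes. The members' median difference was 0.87, and 35 of 80 were above 1 against 6.12% of all genes.

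The neural-side cell a7.10 was also set against A7.4, to see whether members were higher on both sides of the a line. Here 3 members were called higher and 3 lower in a7.10, beside 3.86% and 6.82% of all genes. The median difference over the members was 0.02. KH.C12.323, the leading member, was among those lower in a7.10, with no count against 0, 0, 2.04 and 2.81 CPM in A7.4 (adjusted p = 0.0160). The groups overlapped at 0, the call was lost without A7.4 embryo 5, and the adjusted p reached 0.143 over the alternatives. A fit of the 2 groups alone called 0 members lower, beside 5.83% of genes. Without A7.4 embryo 2 or 3 the members called higher were 0, beside 2.85% and 3.19% of genes. Without a7.10 embryo 5 those called lower were 5, beside 6.13%. DESeq2 called 9 members higher and 5 lower, beside 6.19% and 7.1% of genes. In the main test the share of members called higher was near that of all genes, and the share called lower was under it.

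Of the steps between stages, those from a5.3 to a6.6 and on to a7.11 lie before the samples that chose the members. The fit of these steps held all a-line types, so those samples entered its filter on low counts and its estimate of spread. All 80 members were tested in it. A fit of a5.3 and a6.6 alone tested 38 members and called 13 higher and 0 lower, beside 2.67% and 2.09% of genes. From a5.3 to a6.6, 14 of the 80 members were called higher and 0 lower, where 1.7% of 12621 genes were called higher and 0.483% lower. KH.C9.411 had no count in 5 a5.3 embryos and 29.7 ± 9.45 CPM in a6.6, at least 586-fold higher (adjusted p = 0.00112). KH.S1208.1 had counts in 1 of 5 a5.3 embryos, at 0.459 CPM, and stood at 10.9 ± 10.6 CPM in a6.6 (adjusted p = 0.0284). KH.C9.411 kept its call in all 10 fits without 1 embryo. KH.S1208.1 lost it in 6, those without a5.3 embryo 1, 3, 4 or 5 or a6.6 embryo 3 or 4, with an adjusted p of up to 0.0891. The members called were 9 without a5.3 embryo 6, a6.6 embryo 3 or a6.6 embryo 4, beside 0.937% to 1.33% of genes. By DESeq2 they were 22, beside 3.16%.

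From a6.6 to a7.11, 8 members were called higher and 4 lower, beside 3.73% and 5.35% of all genes. All 80 members were tested in the same fit of all a-line types. A fit of a6.6 and a7.11 alone tested 53 members and called 7 higher and 3 lower, beside 4.98% and 3.92% of genes. KH.L95.5 stood at 0.144, 1.55, 0, 0.422 and 1.34 CPM in a6.6 and at 26.6, 15.03, 9.85, 12.02, 11.7 and 8.59 CPM in a7.11 (log2 fold change 3.998 ± 0.81, adjusted p = 0.00126). It was detected in 7 of 8 a7.10 embryos too, at up to 18.3 CPM. KH.L22.56 rose from 35.7 ± 20.2 CPM in a6.6 to 134 ± 47.0 CPM in a7.11 (adjusted p = 0.00597). The leading member KH.C4.52 was also called higher (adjusted p = 0.0437), with the call lost in 7 of 11 fits without 1 embryo, those without a6.6 embryo 2, 3, 4 or 5 or a7.11 embryo 6, 7 or 8.

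The share of members called lower on this step was near the 5.35% of all genes. The 2 members named as lower had higher means in a8.22 and a9.43+a9.44 than in a7.11. Those levels entered the choice of members, so the later values are only a description. KH.C11.212 fell from 23.01, 24.2, 34.3, 19.4 and 22.8 CPM in a6.6 to 0.111, 1.34, 0, 0, 6.06 and 0 CPM in a7.11 (log2 fold change -4.30 ± 1.12, adjusted p = 0.0109). It was as low in a7.10, with a count in 1 of 8 embryos, and stood at 63.5, 36.5, 52.5 and 0 CPM in a8.22. KH.L141.20 fell from 7.22 ± 4.71 to 0.658 ± 0.853 CPM (adjusted p = 0.0478), a call lost in 10 of 11 fits without 1 embryo and held only without a7.11 embryo 6. It stood at 1.48, 0.798, 3.27 and 18.0 CPM in a8.22 and at 20.98, 18.3 and 51.5 CPM in a9.43+a9.44. Its a8.22 mean of 5.90 CPM was below its a6.6 mean. The members called higher on this step were 4 without a6.6 embryo 4 and 5 without a6.6 embryo 2 or 5 or a7.11 embryo 7. Of all genes, 2.51% to 3.13% were called higher in these fits. Members called lower were 1 without a7.11 embryo 4 or 5, and 2 without a6.6 embryo 1 or 3 or a7.11 embryo 6 or 7. Genes called lower there were 3.97% to 4.94%. limma voom called 7 members lower, beside 6.36% of genes.

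**Figure D4:**
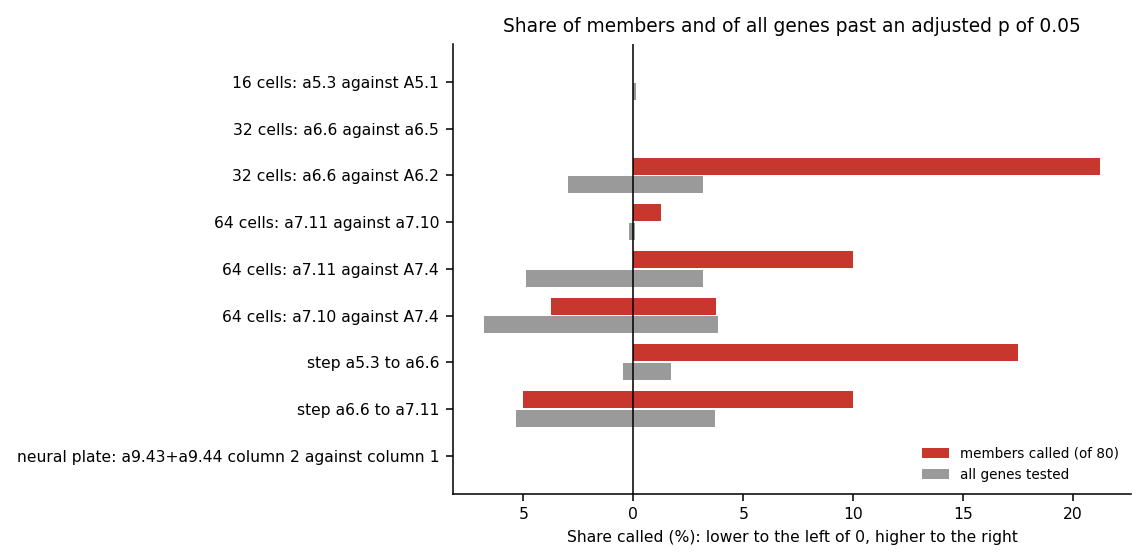
Share of the 80 members (red) and of all genes tested (grey) past an adjusted p of 0.05 in each tested comparison, in percent, with genes lower in the cell named first, at the end of a step or in column 2 to the left of 0 and genes higher to the right. Members are counted over 80 and genes over those tested. The members called higher were 17 for a6.6 against A6.2 and 14 from a5.3 to a6.6.

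At 112 cells the members stood high in a8.22 by choice, so these values only describe how even that level was. Every a8.22 embryo lay above every embryo of A8.5, A8.7 and a8.19 for 28 of the 80 members, beside 0.426% of 14309 genes. Embryo 4 of a8.22, which is a single library of 9484915 counts, stood apart for the members. It had no count for 23 of them, against 2 to 5 in the other embryos, and its sum was 2774 CPM against 3909, 4921 and 6509 CPM. Compared with a8.19 of the same embryo, 50 members were higher and 16 lower in embryo 4, against 71 to 75 higher and 1 to 5 lower in the other embryos. Without it, the members with no overlap were 48, beside 0.875% of genes. Without another a8.22 embryo they were 29 to 33, beside 0.66% to 0.855% of genes.

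The a8.22 libraries from the left and right side of one embryo also differed in single members. In embryos 1, 2 and 3, counts on both sides were found for 60, 60 and 66 members. The median absolute difference of log2(CPM + 1) between sides was 1.08, 0.92 and 0.83. The sums were closer, at 3921 and 3900 CPM, 5451 and 4447 CPM, and 7295 and 5833 CPM, left first. The second highest 112-cell type of a member was a8.19 for 40 members, A8.7 for 22 and A8.5 for 18. The members' coefficient of variation between a8.22 embryos had a median of 72.96%.

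At the neural plate stage, whose levels also chose the members, the median coefficient of variation between embryos was lower than at 112 cells. The stages were not alike in embryos or level, with 3 a9.43+a9.44 embryos against 4 of a8.22. The median member stood at 70.1 against 25.2 CPM, and embryo 4 of a8.22 had no count for 23 members. Every a9.43+a9.44 embryo lay above every embryo of the other types for 58 members, beside 1.99% of 14286 genes. Without 1 of these embryos it was 62 to 65 members, beside 3.03% to 3.66% of genes. With all embryos kept, 25 members had no overlap at both stages, and the share of all genes that did so was not counted. The median coefficient of variation was 38.6%. The next highest type was a9.37+a9.38 for 55 members, A9.13+A9.14 for 15 and A9.9+A9.10 for 10. The neural-side a9.37+a9.38 embryos had sums of 1260, 1940 and 2790 CPM, against 453 to 571 CPM in A9.9+A9.10 and 520 and 597 CPM in A9.13+A9.14. The order of the means in the neural plate was thus a9.43+a9.44, then a9.37+a9.38, and last the A-line types, which overlapped.

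The labels place a9.43+a9.44 libraries in column 1 or column 2 of the plate, a position that the choice of members did not use. By edgeR, 0 members were called higher and 0 lower in column 2, and 0% of 12752 genes were called in either direction. At an unadjusted p below 0.05 stood 278 genes and 0 members. DESeq2 called 16 genes and limma voom 0, with 0 members each. The column 2 libraries had sums of 21718, 18550 and 22299 CPM in embryos 1 to 3. The column 1 libraries had 16133 and 21861 CPM on the left and right of embryo 1 and 20813 CPM in embryo 2. For the leading members the differences had wide errors, such as a log2 fold change of -0.88 ± 0.98 for KH.C12.323 and 0.98 ± 0.56 for KH.C4.52, so the columns are not shown to be alike.

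From a8.22 to a9.43+a9.44 the mean level of a member was higher by a median of 3.53-fold, a description, since both levels entered the choice. At least 2-fold higher were 56 members, at least 5-fold 25 and at least 10-fold 12, while 12 stood below their a8.22 level. All 3 neural plate embryos lay above all 4 a8.22 embryos for 42 members, beside 12.4% of 13796 genes. KH.C1.188, named after its values were seen, had the highest ratio, at 52.3-fold. It stood at 16.4, 25.1, 44.2 and 0 CPM in a8.22 and at 1200, 991 and 1160 CPM in a9.43+a9.44, and at 16.1 CPM on average in a9.37+a9.38. Before 112 cells it stood between 4.52 and 9.64 CPM on average in every cell type.

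Of the 17 members called higher in a6.6 than in A6.2, 5 had a lower mean in a9.43+a9.44 than in a8.22, and for a pair of them the embryos of the stages did not overlap. KH.S1208.1 stood at 39.5, 50.2, 31.7 and 58.6 CPM in a8.22 and at 12.7, 11.5 and 13.5 CPM in a9.43+a9.44, a ratio of 0.278. KH.C9.411 stood at 93.8, 69.0, 141 and 117 CPM and then at 68.3, 24.8 and 51.2 CPM, a ratio of 0.457. These were the 2 members whose neural plate embryos all lay below all a8.22 embryos, beside 12.4% of genes. The other 36 members overlapped between the stages. Both genes had no count in A5.1 and A6.1 embryos.

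**Figure D5:**
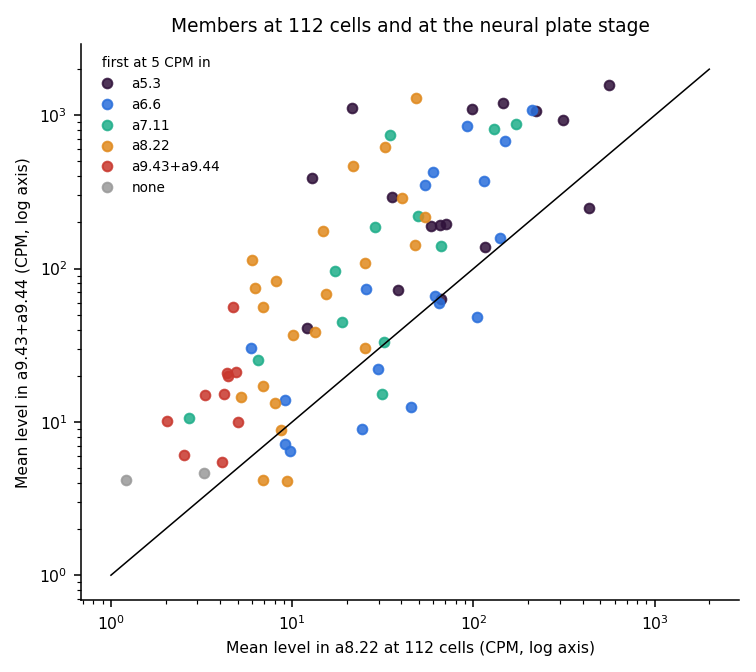
Mean level of each member in a9.43+a9.44 against a8.22, both in CPM on log axes, coloured by the first epidermal-branch cell type at 5 CPM or more. The line marks equal levels. Of the 80 members, 68 lie above the line and 12 below it.

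The members whose course was most like that of KH.C12.323 were KH.S2051.1, KH.C1.1006 and KH.L170.29. Their Pearson correlations of log2(mean CPM + 1) with KH.C12.323 over the 19 cell types were 0.944, 0.919 and 0.915, as a description of cell types that chose the members and share libraries. KH.S2051.1 had no count in a8.19 and A8.7 and stood at 6.38, 13.7, 19.1 and 1.05 CPM in a8.22 and 40.9, 47.5 and 21.5 CPM in a9.43+a9.44. KH.C1.1006 remained low, at 11.2, 9.63, 0.946 and 12.9 CPM in a8.22. KH.L170.29 was already at 18.98 to 62.7 CPM in a6.6 and 10.8 to 49.0 CPM in a7.11, and reached 607, 546 and 886 CPM in a9.43+a9.44.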

How the data were processed

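The authors deposited whole-number read counts per gene for single blastomeres, without normalization. The submitters' processing notes name STAR 2.7.10a as the aligner. Genome build, annotation, counting program and strand setting were not found in the sources used here, so overlapping genes and near-identical copies are uncertain. The cDNA of each cell was amplified, and the labels' protocols name no molecular identifiers, so counts are amplified reads, and limits from counts cover counting error only. All columns were matched to samples by name, with 0 left over. Every pair of libraries in a group differed beyond sampling noise (lowest chi-square per gene 12.6).

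Levels are CPM from raw library totals, as mean ± SD over embryos. Counts of libraries from one cell type and embryo were summed and tested with edgeR 4.0.16 in R 4.3.3 (quasi-likelihood, robust, TMM, its filter on low counts), with all cell types of a stage, or all a-line types for steps, in 1 fit. P-values were Benjamini-Hochberg adjusted over all genes tested, and a call is an adjusted p below 0.05. Adjusted p-values are edgeR's unless another tool is named, and SE is the fold change over the root of F. The script was tested on simulated counts. A fold against a group without counts is a lower bound from 3 counts over the group. Alternatives were DESeq2 1.42.0, limma 3.58.1 (voom), other scaling, no filter, single libraries, 2-group fits, the embryo as a block, and fits without each embryo.

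Partner cells share embryos per the labels, so these samples are paired by design. The reported fits have no embryo block, and blocked fits are an alternative given where a call or count changes. Residuals of same-embryo samples correlated with a mean r of 0.323 for A5.1 and a5.3, 0.388 for a6.5 and a6.6 and 0.0718 for a7.10 and a7.11. The members, lists and tests were chosen with earlier results of these data known. Named genes are the 6 ranked first, those at the end of the list, and per comparison up to 2 per direction past the threshold with at least 5 CPM and no overlap between groups, by fold change. The fixed marker lists could not be applied, since 0 identifiers were in the reference table, and no sequence is shown for the same reason.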

Additional observations from a re-analysis of the deposited data

Results flagged for a closer look

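In 20 of 66 groups of 4 to 8 embryos examined for the named members and the sum, 1 embryo lay far from the others of its cell type. Chance gives about 1 in 20 for normally distributed values, a rate that does not carry over to the 6 of these groups in which every other embryo was at 0. For KH.C12.323 these were a6.5 embryo 5 at 0.753 CPM and a8.19 embryo 2 at 3.85 CPM, with the others at 0, and a6.6 embryo 3 at 25.8 CPM, with the others at 1.73 CPM or less. KH.C4.52 stood at 0.308 CPM in a6.5 embryo 2 and at 2.59 CPM in a6.6 embryo 1, with the others at 0. For KH.L8.1 the embryos were a5.3 embryo 5 at 8.26 CPM, a7.11 embryo 5 at 51.7 CPM and a8.19 embryo 4 at 20.5 CPM, above at most 1.99, 15.3 and 2.82 CPM in the others. The a8.19 cell of embryo 4 was also high for KH.C12.628, at 27.7 CPM, and for KH.S1482.4, at 6.46 CPM, against at most 0.484 and 0.834 CPM. The a8.22 library of that embryo lacked counts for KH.L8.1 and KH.C12.628.

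KH.S1482.4 was high in a7.10 embryo 6 at 12.3 CPM, and KH.C9.701 in a5.3 embryo 1 at 86.8 CPM. KH.C9.411 stood at 0.478 CPM in A6.2 embryo 4, at 171 CPM in a7.11 embryo 8 against 14.8 to 55.8 CPM, and at 0.936 CPM in A7.4 embryo 5. KH.S1208.1 stood at 0.459 CPM in a5.3 embryo 6, with the others at 0. KH.L95.5 was high in a7.11 embryo 3 at 26.6 CPM, KH.C11.212 in a7.11 embryo 7 at 6.06 CPM, and KH.L141.20 in a6.6 embryo 3 at 15.5 CPM. The sum of the members was low in A7.4 embryo 3, at 496 CPM against 696 to 711.4 CPM. The part of any library in these values was not tested.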

How the results depend on the processing

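No call of a member named for its comparison by fold change turned its direction under any alternative run. The direction of the other calls was not tallied. The balance of all genes called did turn. In fits of the 2 groups alone it was 502 higher and 395 lower from a6.6 to a7.11 (471 and 675 in the main test), and 371 and 349 for a7.11 against A7.4 (369 and 571). By limma voom it was 199 and 228 from a5.3 to a6.6 (215 and 61), and with the A6.1 library of embryo 5 it was 70 and 25 for a6.6 against A6.2 (358 and 336). DESeq2 called 201 genes for a5.3 against A5.1, 18 for a6.6 against a6.5, 1228 for a6.6 against A6.2, 154 for a7.11 against a7.10, 524 from a5.3 to a6.6 and 16 between columns. By DESeq2 the members called higher were 7 for a7.11 against a7.10 (0.515% of genes) and 22 from a5.3 to a6.6 (3.16%). For a7.10 against A7.4 they were 9 higher (6.19%) and 5 lower (7.1%). By limma voom 4 genes were called at 16 cells, 12 for a6.6 against a6.5 with 1 member, and 427 from a5.3 to a6.6. limma voom members were 4 higher for a7.11 against a7.10 (0.12% of genes) and 7 lower from a6.6 to a7.11 (6.36%). For a7.11 against A7.4 they were 14 higher (4.52%) and 1 lower (6.6%). Without the filter 5 genes were called at 16 cells. With single libraries the genes were 43 at 16 cells, 10 for a6.6 against a6.5 and 1661 for a6.6 against A6.2. Members called higher in a7.10 than A7.4 were then 6, beside 5.22% of genes. In fits of the 2 groups alone, 4 genes were called for a6.6 against a6.5 and 478 from a5.3 to a6.6. The members higher in such fits were 3 for a7.11 against a7.10 (0.182% of genes) and 13 for a7.11 against A7.4 (3.59%). For a7.10 against A7.4, 0 members were lower (5.83%). With the A6.1 library of embryo 5, 0 genes differed between a6.6 and a6.5, and 95 genes and 9 members between a6.6 and A6.2. The cause of these shifts was not tested.

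With the embryo as a replicate block, 128 genes and 0 members were called at 16 cells, 12 genes and 0 members for a6.6 against a6.5, and 8 genes and 0 members for a7.11 against a7.10, where KH.C12.323 lost its call (adjusted p = 0.149). Between the columns the block called 0 genes and 0 members. The block was not run for cells without shared embryos.

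Without 1 embryo in turn, the genes called were 2 to 24 for a5.3 against A5.1, 0 to 2 for a6.6 against a6.5, 400 to 780 for a6.6 against A6.2, 24 to 47 for a7.11 against a7.10, 523 to 843 for a7.11 against A7.4, 722 to 1155 for a7.10 against A7.4, 132 to 372 from a5.3 to a6.6, 749 to 1077 from a6.6 to a7.11 and 0 to 1 between columns. The members called higher were 12 to 18 for a6.6 against A6.2 (1.94% to 3.82% of genes) and 1 to 3 for a7.11 against a7.10 (0.0258% to 0.129%). They were 3 to 6 for a7.11 against A7.4 (1.53% to 2.92%) and 0 to 4 for a7.10 against A7.4 (1.99% to 3.7%). On the steps they were 9 to 14 from a5.3 to a6.6 (0.937% to 2.13%) and 4 to 8 from a6.6 to a7.11 (2.51% to 3.58%). Those called lower were 3 to 5 for a7.10 against A7.4 (4.02% to 6.3% of genes) and 1 to 3 from a6.6 to a7.11 (3.44% to 4.97%). Members with no overlap were 29 to 48 at 112 cells, beside 0.66% to 0.875% of genes. In the plate they were 62 to 65, beside 3.03% to 3.66%.

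The rule found 66 genes with a pseudocount of 5 CPM, of which 59 were members, 134 with 0.5 CPM, and 104 with means over embryos, which kept 69 members; without 1 embryo of a8.22 or a9.43+a9.44 it found 107 to 123 genes and kept 69 to 77 members. A9.13+A9.14 came from 2 embryos, and low members at 64 cells and earlier rest on few counts.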
